A study of Mus musculus and Homo sapiens with 22 samples.

Results

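The mitochondrially encoded genes of the mouse were taken as every gene whose symbol starts with mt-, and there were 37 of them among the 56196 genes of the count tables. They comprised 2 ribosomal RNA (rRNA) genes, 13 protein-coding (mRNA) genes and 22 transfer RNA (tRNA) genes, with 28 on the plus strand and 9 on the minus strand of a circle of 16299 bases (chrM, GRCm38.p6). RNA-seq was available from mouse embryonic stem cells (mESC), pluripotent cells from the early embryo, in a wild-type line (WT, n = 3 libraries) and a line lacking Mettl3, the catalytic subunit of the main N6-methyladenosine (m6A) methyltransferase of mRNA (Mettl3 KO, n = 3 libraries). Both lines came from an earlier study and grew in serum with the cytokine LIF, and how many clones stand behind each was not given in the sources used here. The study's methods describe poly(A)+ RNA after 1 round of selection for mESC, whereas its results describe 2 rounds, and its RNA-seq section names no selection step. The RNA-seq libraries were stranded and read from 1 end for 84 bases. The other 6 tables listed predicted m6A sites in WT mESC, in the human embryonic kidney line HEK293T and in commercially purchased mouse heart RNA at inputs of 1000, 300, 100 and 50 ng. The predictions were made by m6Aboost from peaks of miCLIP2, an antibody crosslinking assay. The authors trained this classifier on mESC peaks that fell or did not fall in Mettl3 KO. It uses the sequence around each A, the transcript region and the miCLIP2 signal, so the tables hold the peaks that it kept.

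Mitochondrial DNA is transcribed from both strands into long precursor RNAs, and the tRNAs between the other genes are excised to release the mRNAs and rRNAs. Nearly all mRNAs, both rRNAs and most tRNAs lie on the strand annotated as plus, whereas the minus strand carries mt-Nd6 and the remaining tRNAs. The mRNAs encode core subunits of the respiratory chain and of ATP synthase, and the rRNAs and tRNAs serve the ribosomes inside the organelle. Mature mitochondrial mRNAs and rRNAs carry short poly(A) tails, with mt-Nd6 mRNA known as an exception in mammals, so their yield in poly(A)+ RNA need not follow their abundance in the cell.

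Mettl3 itself had 560, 698 and 612 reads in WT replicates 1 to 3 and 462, 669 and 457 reads in KO replicates 1 to 3. Its level in CPM (reads scaled to the size of the library) did not overlap between the groups, at a log2 fold change of -0.50 ± 0.14 (SE) and an adjusted p of 0.0134 (edgeR). The adjusted p was 0.00281 with the replicate number as a block (edgeR), 0.00418 by DESeq2 and 0.0768 with scaling by library size alone (edgeR). With 1 library left out it lay between 0.00685 (without KO replicate 2) and 0.0682 (without KO replicate 3, edgeR). Only the fit without KO replicate 2 brought it below 0.01 among these. The mRNA was therefore still counted in KO, and these counts do not show which part of it the knockout removed. Reads assigned to genes ranged from 22746733 to 27254245 per library, and 13.9 to 15.2% of all reads were set aside because they aligned to more than 1 place. All 10 stem cell markers examined were tested, with a summed level of 4576 to 4890 CPM in WT and 3299 to 3345 CPM in KO, and 4 of them were called lower in KO (Dppa5a, Tdgf1, Utf1 and Fbxo15), where 12.6% of all genes were. Most of the fall in the sum came from Dppa5a (957 CPM in WT and 298 CPM in KO) and Tdgf1 (903 and 229 CPM). Esrrb lay above WT in all KO libraries but was not called (log2 fold change 0.43, adjusted p = 0.0106, edgeR), and the other 5 overlapped. Of 10 fibroblast markers, standing for feeder cells, 4 were tested and Thy1 was called higher in KO. Neither Pdgfra nor Col1a1 was called, and neither overlapped between the groups, with Pdgfra above WT in KO (log2 fold change 1.02, adjusted p = 0.0124, edgeR) and Col1a1, a collagen of fibroblasts, below it (-0.81, adjusted p = 0.0737, edgeR). The summed level of the fibroblast markers was 7.28 to 13.2 CPM in WT and 16.6 to 19.7 CPM in KO, and the part of either marker shift in the mitochondrial values was not tested.

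Which mitochondrial genes could receive reads was examined from the reference sequence. A run of 84 bases is called countable here where it overlaps 1 gene of its strand alone and has no identical copy in any nuclear chromosome of the reference. Of the 16216 windows of 84 bases on chrM, 5032 (31.0%) had an identical nuclear copy. The longest nuclear copy lay on the minus strand at chr1:24611535-24616188 and matched chrM:6390-11042 over 4654 aligned bases at 99.9% identity, with 2 mismatches and 1 gap. Further copies lay at chr2:22587288-22590534 (97.4% identity) and chr13:85126562-85127515 (95.2% identity).

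The 2 substitutions of the chromosome 1 copy were A6393T in mt-Co1 and T9461C in mt-Nd3, written with the mitochondrial base first and counted from the start of chrM. The second is shown, on the strand of mt-Nd3 and with the differing base in capitals, because it alone left mt-Nd3 any countable window. The mitochondrial sequence spans chrM:9441-9481 and the nuclear one chr1:24613097-24613137.
mt-Nd3 on chrM: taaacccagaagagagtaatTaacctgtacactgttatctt
copy on chromosome 1: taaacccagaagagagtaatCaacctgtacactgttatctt

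Altogether 16 of the 37 genes had no countable window. In 9 tRNA genes every window also touched a neighbour on the same strand, and in 7 genes all remaining windows were copied in the nucleus (mt-Ts1, mt-Td, mt-Co2, mt-Atp8, mt-Atp6, mt-Co3 and mt-Nd4l). Windows followed the linear reference, so none ran across the origin of the circle into mt-Tf, 1 of the 9, which starts at base 1. No read was counted in any library for 15 genes, and all of these were among the 16 without a countable window. They included mt-Co2 and mt-Co3, subunits of cytochrome c oxidase, and mt-Atp6 and mt-Atp8, subunits of ATP synthase. The exception was mt-Nd4l, a complex I subunit, with 1 read in total, and mt-Nd3, another complex I subunit with 3 countable windows, also had 1 read in total. A count of 0 for these genes therefore carries no information on their expression.

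Other genes were countable in part. For mt-Co1, 969 of 1614 windows that touched no neighbour were countable, and none of them started beyond base 1066 of the gene. For mt-Nd4, 503 of 1289 such windows were countable, all starting at or after base 794. The annotated nuclear pseudogenes within the copies drew few reads. The highest totals were those of Gm13340 (27, 27 and 23 reads in WT and 20, 21 and 31 in KO), Gm13341 (4, 38 and 8 against 18, 29 and 18) and Gm29216 (14, 23 and 20 against 9, 14 and 9).

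**Figure D1:**
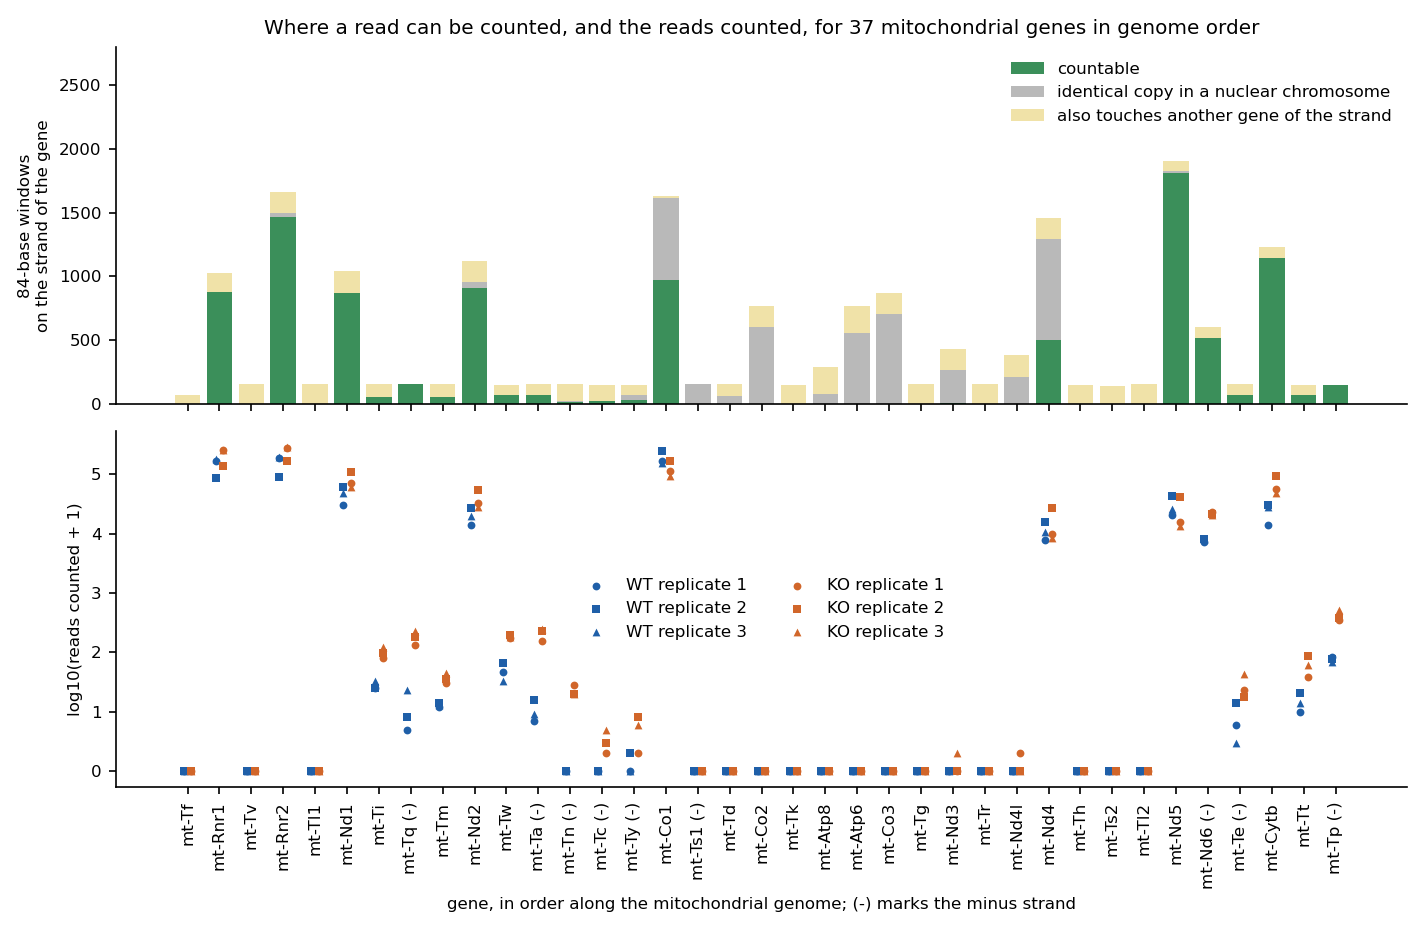
Top, number of 84-base windows on the strand of each of the 37 mitochondrial genes, split into countable windows, windows with an identical nuclear copy and windows that also touch another gene of the strand; bottom, log10 of reads counted plus 1 in each of the 6 libraries (blue WT, orange KO; circle, square and triangle are replicates 1, 2 and 3). The 15 genes at 0 in every library have no green bar.

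Across the 6 libraries, mitochondrial genes took 2.73, 2.44 and 2.85% of gene counts in WT and 3.42, 3.02 and 3.09% in KO. The KO libraries all lay above the WT libraries, at 3.17% ± 0.212 against 2.67% ± 0.207 (SD, n = 3 each; exact two-sided permutation p = 0.1, the smallest that 3 against 3 allows). The mRNA genes alone took 1.38% ± 0.310 in WT and 1.40% ± 0.446 in KO (exact permutation p = 0.9), which was not a detectable difference. The rRNA genes took 1.29% ± 0.503 in WT and 1.77% ± 0.562 in KO, with overlapping groups (exact permutation p = 0.3). Within same-numbered libraries the rRNA genes were higher in KO by 0.548, 0.409 and 0.469 percentage points of gene counts (exact sign-flip p = 0.25, the smallest that 3 pairs allow).

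Of the 37 genes, 18 passed the filter on low counts and were tested (2 rRNA, 7 mRNA and 9 tRNA genes). With the threshold on the adjusted p set to 0.01 (quasi-likelihood test of edgeR, Benjamini-Hochberg adjustment over 15731 genes), 11 of the 18 were called, 10 higher in KO and 1 lower. Over all genes tested 29.7% were called, 17.1% higher and 12.6% lower. The 10 were mt-Nd6, mt-Cytb and 8 tRNA genes, and the 1 was mt-Co1. Of the 18, however, 5 tRNA genes (mt-Tq, mt-Ta, mt-Tn, mt-Te and mt-Tt) reached the filter's level of 0.402 CPM in all 3 libraries of KO but not of WT, so they were bound to be higher in KO and their count is a description. Among the other 13, which reached it in every library, 6 were higher and 1 was lower.

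Same-numbered WT and KO libraries deviated together for numbers 2 and 3 and only weakly for number 1. Fitting the replicate number as a block raised the calls to 15 (13 higher and 2 lower), where 43.5% of all genes were called, 23.5% higher and 20.0% lower. The genes gained were mt-Nd1, mt-Nd2 and mt-Te, all higher, and mt-Nd5, lower. Those called higher with the block include mt-Tq, mt-Ta, mt-Tn, mt-Te and mt-Tt, which passed the filter through KO alone. Their part of the count, and the gain of mt-Te, are therefore a description. For mt-Rnr1, mt-Rnr2 and mt-Nd4 no change was called with or without the block.

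**Figure D2:**
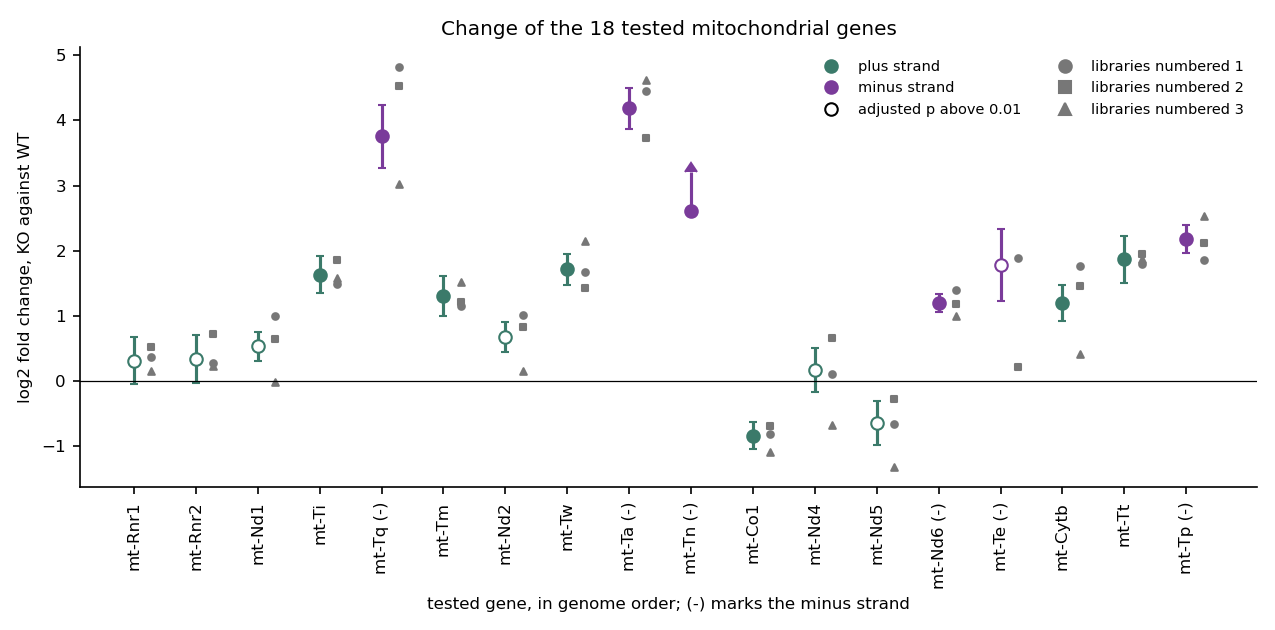
Log2 fold change of KO against WT with its standard error for the 18 tested mitochondrial genes in genome order (green plus strand, purple minus strand; open circles, adjusted p above 0.01), and in grey the log2 ratio of CPM between libraries of the same number, omitted where a library had 3 reads or fewer. mt-Tn, with no WT read, is drawn at its lower bound with an upward arrow; mt-Co1 and mt-Nd5 are the genes below 0.

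The rRNAs differed widely between libraries of 1 group. mt-Rnr1, the RNA of the small ribosomal subunit (chrM:70-1024), had 169145, 86668 and 178227 reads in WT and 259014, 140353 and 254302 reads in KO. mt-Rnr2, the RNA of the large subunit (chrM:1094-2675), had 189945, 88536 and 193120 reads in WT and 273669, 164386 and 289755 reads in KO. In both groups replicate 2 stood far below the others, and the ranges of CPM overlapped.

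The log2 fold changes were 0.31 ± 0.36 for mt-Rnr1 and 0.34 ± 0.37 for mt-Rnr2 (SE), with adjusted p of 0.505 and 0.472 (edgeR). Without WT replicate 2 they were -0.019 and -0.0087. The rRNA share of mitochondrial counts was 57.9, 29.0 and 55.6% in WT and 62.2, 37.0 and 66.5% in KO (exact permutation p = 0.5). Within same-numbered libraries the share was higher in KO by 4.36, 8.02 and 10.9 percentage points, and without WT replicate 2 the difference of the means was -1.50 points. The ratio of the rRNAs to each other was close in both groups, with mt-Rnr1 at 93.1% ± 4.47 of mt-Rnr2 in WT and 89.3% ± 4.81 in KO (exact permutation p = 0.4).

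**Figure D3:**
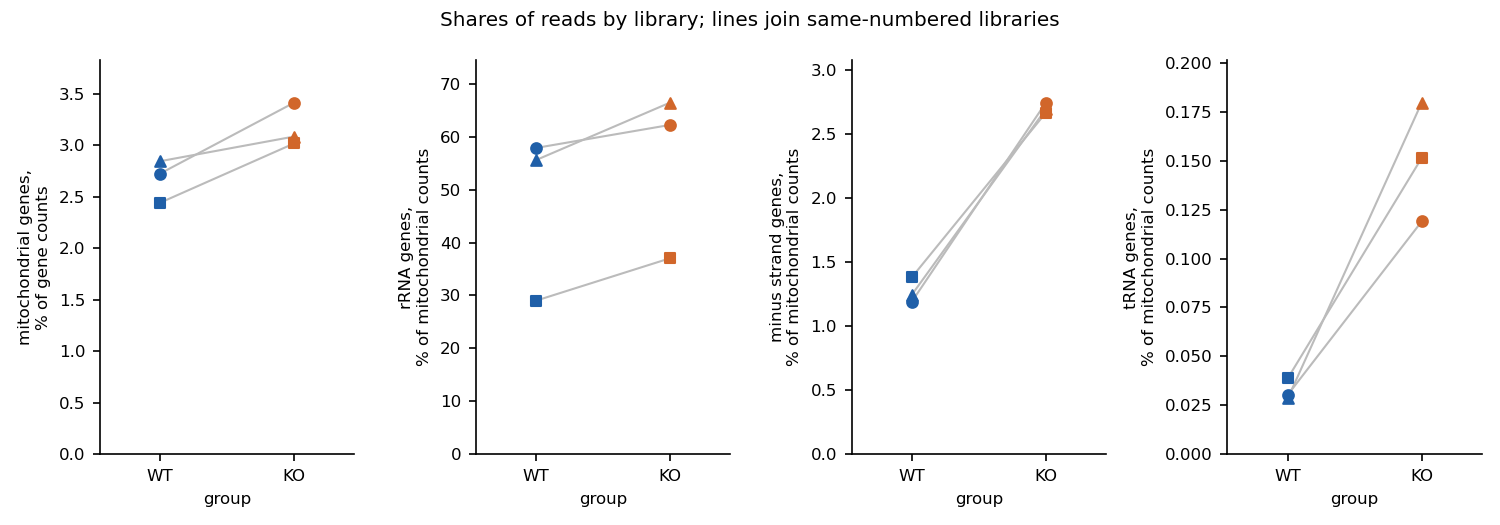
Shares of reads by library for WT and KO (circle, square and triangle are replicates 1, 2 and 3; grey lines join same-numbered libraries): mitochondrial genes in percent of gene counts, then rRNA, minus strand and tRNA genes in percent of mitochondrial counts. The rRNA share is lowest in replicate 2 of both groups, whereas the minus strand and tRNA shares lie higher in all 3 KO libraries.

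Among the mRNAs, mt-Co1 was called lower and mt-Cytb and mt-Nd6 higher in KO. mt-Co1, the catalytic subunit of cytochrome c oxidase (chrM:5328-6872), had 166997, 242056 and 155432 reads in WT and 113295, 170141 and 93422 reads in KO. Its level was 7883, 9218 and 7345 CPM in WT and 4509, 5743 and 3451 CPM in KO, so the groups did not overlap. It fell by 0.84 ± 0.20 on the log2 scale (SE; adjusted p = 0.00733, edgeR), to 0.561 of the WT level.

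The call for mt-Co1 was close to the threshold. Leaving out WT replicate 1 or 2 raised the adjusted p to 0.0239 or 0.0144, and leaving out KO replicate 1 or 3 raised it to 0.0358 or 0.0392 (edgeR). Scaling by library size alone gave 0.0215, and the log2 fold changes of these fits lay between -0.86 and -0.66. The call was also lost when at least 10 reads were required in every library. Scaled to the mitochondrial total in place of all genes, mt-Co1 fell by 0.99 on the log2 scale (adjusted p = 0.00352, edgeR). With the replicate block the adjusted p was 3.54e-05 (edgeR).

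mt-Cytb, the cytochrome b subunit of complex III (chrM:14145-15288), had 13782, 30397 and 28071 reads in WT and 55464, 94542 and 47935 reads in KO. Its level was 650.5, 1158 and 1326 CPM in WT and 2208, 3191 and 1771 CPM in KO. All KO libraries lay above all WT libraries, with a log2 fold change of 1.19 ± 0.27 (SE; adjusted p = 0.00549, edgeR). Leaving out WT replicate 1 gave an adjusted p of 0.0193, and leaving out KO replicate 1 or 2 gave 0.0145 or 0.0215 (edgeR).

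mt-Nd6, the complex I subunit on the minus strand (chrM:13552-14070), had 7291, 8227 and 8214 reads in WT and 22788, 21104 and 20981 reads in KO. These values barely varied within a group, with means of 348.5 ± 37.6 CPM (WT) and 798.1 ± 99.4 CPM (KO; SD over 3 libraries). The log2 fold change was 1.20 ± 0.13 (SE; adjusted p = 0.000102, edgeR), and the call held in each of the 15 alternatives run. mt-Nd6 ends on the opposite strand to the end of mt-Nd5, and the counting used strand to tell them apart.

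The remaining complex I genes did not pass the test without the block. mt-Nd1 (chrM:2751-3707) had 30349, 61686 and 47995 reads in WT and 71687, 108666 and 60641 in KO, with overlapping levels and a log2 fold change of 0.53 ± 0.23 (SE; adjusted p = 0.0755, and 0.00618 with the replicate block, edgeR). mt-Nd2 (chrM:3914-4951) had 13845, 27106 and 19767 reads in WT and 33083, 54343 and 28038 in KO. Its levels did not overlap, by a margin of 1032 CPM in the highest WT library to 1036 CPM in the lowest KO library, and its log2 fold change was 0.68 ± 0.22 (SE; adjusted p = 0.0303, and 0.000616 with the block, edgeR).

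mt-Nd5 (chrM:11742-13565) had 20878, 43464 and 26197 reads in WT and 15700, 40619 and 13403 in KO, with overlapping levels and a log2 fold change of -0.64 ± 0.33 (SE; adjusted p = 0.141, and 0.000401 with the block, edgeR). Without KO replicate 2 the mt-Nd5 value was -1.20 (adjusted p = 0.00338, edgeR). mt-Nd4 (chrM:10167-11544) had 7830, 15432 and 10638 reads in WT and 10008, 27497 and 8559 in KO. Its log2 fold change was 0.17 ± 0.34 (SE; adjusted p = 0.705, edgeR), and it was -0.44 without KO replicate 2. Along the plus strand, then, the tested mRNAs gave log2 fold changes of 0.53, 0.68, -0.84, 0.17, -0.64 and 1.19 in the order mt-Nd1, mt-Nd2, mt-Co1, mt-Nd4, mt-Nd5 and mt-Cytb, with no steady rise or fall along the strand.

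**Figure D4:**
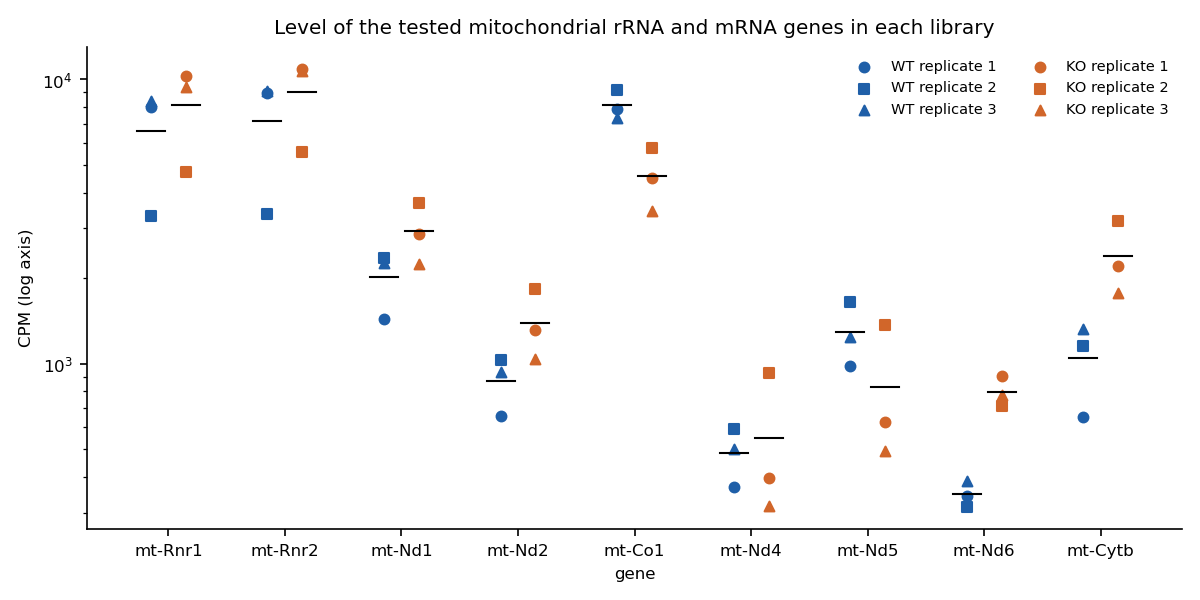
Level in CPM, on a log axis, of the 2 rRNA and 7 mRNA genes tested, for each WT (blue) and KO (orange) library; circle, square and triangle are replicates 1, 2 and 3, and black lines are group means. mt-Co1 lies lower and mt-Nd6 and mt-Cytb lie higher in all 3 KO libraries, whereas both rRNAs overlap.

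Because each gene is countable over a different length, levels of different genes were set side by side as CPM per 1000 countable windows. In WT, mt-Co1 stood at 8409 ± 995, mt-Rnr1 at 7524 ± 3252 and mt-Rnr2 at 4883 ± 2237 (SD, n = 3), and these neighbours did not differ by more than the larger of their SDs. The SDs of both rRNAs include their low values in replicate 2, and on this scale mt-Rnr1 lay above mt-Rnr2 in all 6 libraries. It lay above mt-Co1 in WT replicates 1 and 3 (9146 against 8135 and 9647 against 7580) and below it in WT replicate 2 (3780 against 9512), so the place of mt-Co1 at the head of the WT means rests on replicate 2. mt-Nd1 followed at 2312 ± 582. mt-Nd4 (967 ± 219), mt-Nd2 (963 ± 217), mt-Cytb (913 ± 307), mt-Nd5 (713 ± 187) and mt-Nd6 (672 ± 72.5) formed a group whose neighbours lay within the larger SD of each other.

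The levels in KO were set out in the same way. mt-Rnr1 stood at 9332 ± 3423, mt-Rnr2 at 6176 ± 2070 and mt-Co1 at 4714 ± 1183 CPM per 1000 countable windows, followed by mt-Nd1 at 3349 ± 821, mt-Cytb at 2089 ± 636, mt-Nd2 at 1539 ± 447, mt-Nd6 at 1538 ± 191, mt-Nd4 at 1089 ± 660 and mt-Nd5 at 458 ± 261. In KO too, mt-Rnr1 lay above mt-Co1 in replicates 1 and 3 and below it in replicate 2 (5426 against 5926). By the measure of the larger SD, mt-Nd1 stood apart from mt-Co1 above it and mt-Cytb below it, and the other neighbours did not. The 9 tRNA genes tested lay between 3.24 and 31.4 in WT, leaving aside mt-Tn with no read, and between 14.5 and 108 in KO on the same scale. Different genes can also differ in tail length and fragmentation, so the order is that of reads in these libraries.

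Shares within the mRNA counts leave the rRNA out of the total. In effect they also leave out mt-Co2, mt-Co3, mt-Atp6, mt-Atp8, mt-Nd3 and mt-Nd4l, which had at most 1 read each. The shares make up a whole, so a fall in the share of mt-Co1 raises those of other genes. mt-Co1 took 64.0, 56.5 and 52.5% of mRNA counts in WT and 35.2, 32.9 and 34.2% in KO. mt-Cytb took 5.28, 7.10 and 9.47% in WT and 17.2, 18.3 and 17.6% in KO. In both cases the groups were far apart against their own ranges (exact permutation p = 0.1 each, the smallest possible).

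The mean share of mRNA counts was 14.1% in WT and 21.8% in KO for mt-Nd1, 6.10 and 10.4% for mt-Nd2 and 2.50 and 6.28% for mt-Nd6, with groups that did not overlap. These are gains of 7.76, 4.25 and 3.79 percentage points, beside 10.4 points for mt-Cytb. The mean share of mt-Nd5 fell by 3.11 percentage points to 5.88%, also without overlap (exact permutation p = 0.1 for each of these genes). In CPM, however, mt-Nd1 and mt-Nd5 overlapped between the groups, and mt-Nd1, mt-Nd2 and mt-Nd5 were not called without the block. For mt-Nd4 the share was higher in KO by 0.457 percentage points on average, with overlapping groups (exact permutation p = 0.8). Reads of mt-Nd6 amounted to 34.9, 18.9 and 31.4% of those of mt-Nd5 in WT and to 145, 52.0 and 157% in KO. Thus mt-Nd6 outnumbered mt-Nd5 in KO replicates 1 and 3 but in no WT library.

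**Figure D5:**
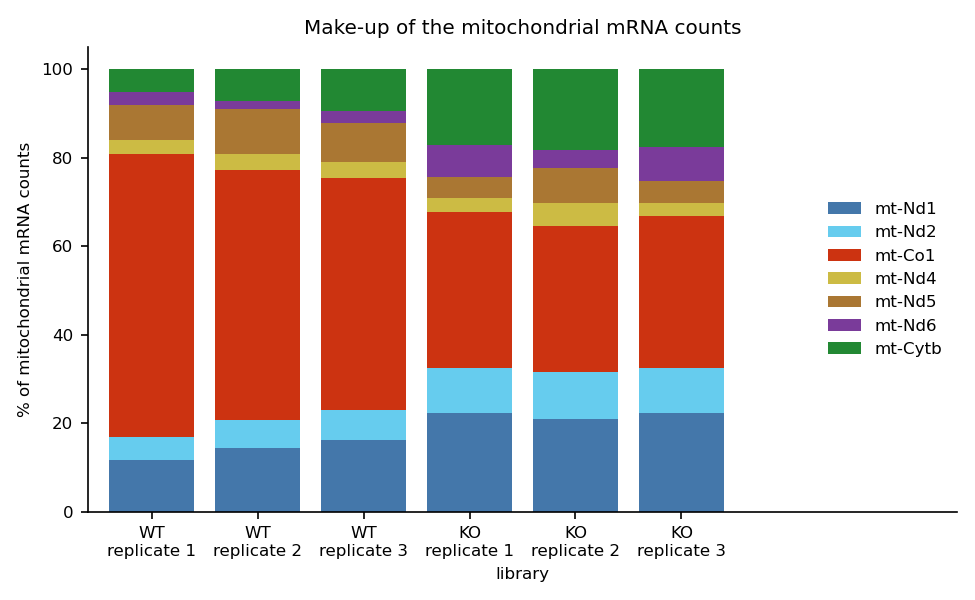
Make-up of the mitochondrial mRNA counts in each library, as stacked percentages of the 7 mRNA genes with more than 1 read. mt-Co1 shrinks from between 52.5 and 64.0% in WT to between 32.9 and 35.2% in KO, and mt-Cytb grows from between 5.28 and 9.47% to between 17.2 and 18.3%.

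The tRNA genes had few reads but the largest ratios. They are 59 to 75 bases long, shorter than a read of full length, so a full-length read counted for them also covers sequence outside the gene. Together they held 188, 234 and 190 reads in WT and 1018, 1246 and 1471 reads in KO. Their share of mitochondrial counts was 0.0303, 0.0388 and 0.0284% in WT and 0.119, 0.151 and 0.180% in KO, without overlap (exact permutation p = 0.1).

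The minus strand tRNA genes with the highest ratios are shown 5′ to 3′ on their own strand, with the gene in capitals and 10 flanking bases on each side. mt-Ta (alanine) spans chrM:5018-5086, mt-Tq (glutamine) chrM:3772-3842 and mt-Tn (asparagine) chrM:5089-5159, and the end of mt-Tn and the start of mt-Ta are separated by 2 bases. The flanks shown between mt-Tn and mt-Ta therefore reach into the other gene, and a read that touches both genes is not countable. Countable windows started at chrM:4935 to 5005 for mt-Ta and at chrM:5099 to 5108 for mt-Tn.
mt-Ta: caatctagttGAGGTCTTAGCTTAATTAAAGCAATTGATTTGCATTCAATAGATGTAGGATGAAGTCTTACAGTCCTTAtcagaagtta
mt-Tq: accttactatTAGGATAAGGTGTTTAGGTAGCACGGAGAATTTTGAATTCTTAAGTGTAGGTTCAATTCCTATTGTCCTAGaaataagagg
mt-Tn: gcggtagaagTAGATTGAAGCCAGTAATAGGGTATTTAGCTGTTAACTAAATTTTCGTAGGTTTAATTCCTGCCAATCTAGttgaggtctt

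mt-Ta had 6, 15 and 8 reads in WT and 156, 225 and 251 reads in KO, a log2 fold change of 4.18 ± 0.32 (SE; adjusted p = 1.24e-05, edgeR). mt-Tq had 4, 7 and 22 reads in WT and 134, 183 and 229 reads in KO, a log2 fold change of 3.76 ± 0.48 (SE; adjusted p = 0.000214, edgeR). mt-Tn had no read in any WT library and 27, 19 and 19 reads in KO, which is at least 6.08-fold higher when WT is set to the floor of 3 reads per library. These genes passed the filter through KO alone, so they were bound to be higher there. Their adjusted p and the gap between their ranges are a description.

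mt-Tp (proline, minus strand), which passed the filter in both groups, had 83, 77 and 69 reads in WT and 356, 379 and 513 reads in KO. Its log2 fold change was 2.18 ± 0.21 (SE; adjusted p = 4.62e-05, edgeR), and the call held in each of the 15 alternatives. mt-Te (glutamate, minus strand) had 5, 13 and 2 reads in WT and 22, 17 and 42 reads in KO. It was not called without the block (log2 fold change 1.78 ± 0.55 SE, adjusted p = 0.0222) and was called with it (adjusted p = 0.00841, edgeR). mt-Te passed the filter through KO alone, so these values are a description.

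On the plus strand, mt-Tw (tryptophan) had 46, 64 and 32 reads in WT and 175, 195 and 181 reads in KO (log2 fold change 1.72 ± 0.24 SE, adjusted p = 0.000302, edgeR). mt-Ti (isoleucine) had 24, 24 and 32 reads in WT and 80, 98 and 122 reads in KO (1.63 ± 0.29 SE, adjusted p = 0.00122, edgeR). Both calls held in each of the 15 alternatives. mt-Tt (threonine) had 9, 20 and 13 reads in WT and 37, 87 and 61 reads in KO (1.87 ± 0.36 SE, adjusted p = 0.00208, edgeR; 0.0121 without WT replicate 1). Unlike mt-Tw and mt-Ti, mt-Tt passed the filter through KO alone, so its values are a description.

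mt-Tm (methionine), the lowest ratio among the tRNAs, had 11, 13 and 12 reads in WT and 29, 34 and 44 reads in KO (1.31 ± 0.31 SE, adjusted p = 0.00653, edgeR). Its adjusted p lay between 0.0101 and 0.0368 when any 1 library was left out, and it was 0.0175 by DESeq2. Of the tRNA genes too low to test, mt-Tc (cysteine) had no read in WT and 1, 2 and 4 reads in KO, and mt-Ty (tyrosine) had 0, 1 and 0 reads in WT and 1, 7 and 5 reads in KO.

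By strand, minus strand genes held 1.19, 1.38 and 1.25% of mitochondrial counts in WT and 2.74, 2.67 and 2.69% in KO, a difference of 1.43 percentage points between the means (exact permutation p = 0.1). mt-Nd6 accounted for 98.7% ± 0.0741 of these minus strand counts in WT and 96.1% ± 0.929 in KO. Among tRNA reads alone, 51.2% ± 2.56 came from the minus strand in WT and 69.2% ± 2.81 in KO, again without overlap (exact permutation p = 0.1). All 6 minus strand genes tested had levels in KO above those in WT, as had 6 of the 12 plus strand genes, where 29.2% of all tested genes did. Of those 6 minus strand genes, mt-Tq, mt-Ta, mt-Tn and mt-Te passed the filter through KO alone, as did mt-Tt among the 6 plus strand genes, so these counts are a description.

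The nuclear genes that serve mitochondrial gene expression were examined as a list of 67 genes for transcription, processing, RNA modification and RNA stability, of which 65 were tested. In KO 11 were higher and 8 lower, shares close to the 17.1% higher and 12.6% lower over all genes tested, with a median log2 fold change of 0.12 beside -0.02 over all genes tested. When scaled by library size alone, which moved the median of all genes from -0.02 to 0.08, the split was 14 higher and 4 lower. No share over all genes is given for that scaling. With the replicate block the split was 20 higher and 9 lower (23.5% and 20.0% over all genes).

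Polrmt, Tfam, Lrpprc and Slirp, named whatever their values, were not called. Polrmt, the mitochondrial RNA polymerase, had 808, 1014 and 828 reads in WT and 957, 1171 and 957 in KO (log2 fold change -0.04 ± 0.10 SE, adjusted p = 0.792, edgeR). Tfam, which packages mitochondrial DNA and starts transcription, had a log2 fold change of 0.18 ± 0.12 (SE; adjusted p = 0.231, edgeR). Lrpprc and Slirp, which together stabilise mitochondrial mRNAs, had log2 fold changes of -0.05 ± 0.13 and 0.12 ± 0.15 (adjusted p = 0.780 and 0.533, edgeR). Other genes of the list were called higher, among them Tefm, the elongation factor of mitochondrial transcription (0.82 ± 0.17 SE, adjusted p = 0.00317, edgeR), and Mterf4 (1.08 ± 0.16 SE, adjusted p = 0.000415, edgeR), both named after their values were seen.

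The 3 called genes of the list with the highest ratios were Mrm3, Mettl15 and Mrm2. Mrm3, a methyltransferase of the large-subunit rRNA, had 99, 142 and 147 reads in WT and 565, 620 and 632 reads in KO (log2 fold change 1.97 ± 0.17 SE, adjusted p = 2.44e-05, edgeR). Mrm2, which methylates the same rRNA, had 139, 173 and 239 reads in WT and 503, 458 and 521 in KO (1.16 ± 0.22 SE, adjusted p = 0.00208, edgeR; 0.0127 without WT replicate 1 and 0.0119 without KO replicate 1). Mettl15, a methyltransferase of the small-subunit rRNA, had 119, 148 and 135 reads in WT and 356, 371 and 407 in KO (1.24 ± 0.16 SE, adjusted p = 0.000239, edgeR). Some other genes of the list that modify rRNA were not called, with log2 fold changes of -0.28 for Mrm1, -0.14 for Nsun4, -0.12 for Rpusd4 and 0.05 for Tfb1m (named after their values were seen). Further genes of the list for RNA modification were called. Among them were Rpusd3, higher (0.65, adjusted p = 0.00229, edgeR, also named after its value was seen), and Trmt61b, lower, given below.

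At the other end, Mettl17, a factor of the small ribosomal subunit, had 352, 422 and 298 reads in WT and 166, 217 and 203 in KO (log2 fold change -1.12 ± 0.15 SE, adjusted p = 0.000287, edgeR). Trmt61b, which methylates adenosines of mitochondrial RNAs, had 162, 175 and 178 reads in WT and 95, 108 and 86 in KO (-1.10 ± 0.20 SE, adjusted p = 0.00159, edgeR; 0.0103 without KO replicate 3). Polg2, the accessory subunit of the mitochondrial DNA polymerase, had 250, 374 and 204 reads in WT and 171, 176 and 213 in KO (-0.79 ± 0.20 SE, adjusted p = 0.00811, edgeR). The call for Polg2 was lost without WT replicate 1 or 2 or any KO library, at adjusted p of 0.0147 to 0.0337 (edgeR). Mettl17, Trmt61b and Polg2 had the lowest log2 fold changes among the called genes of the list.

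The nuclear-encoded partners of the mitochondrial proteins, 81 subunits of the respiratory chain and ATP synthase, were mostly lower in KO where they were called. Of 75 tested, 18 were lower, where 12.6% of all genes were, and 1 was higher, where 17.1% were (Uqcrfs1, the iron-sulfur subunit of complex III, named after its value was seen; 83.6 ± 4.87 CPM in WT and 130.2 ± 9.52 CPM in KO), with a median log2 fold change of -0.33. Their summed level was 8874 to 9127 CPM in WT and 6711 to 7539 CPM in KO, without overlap. When scaled by library size alone, for which no share over all genes is given, 8 were lower and 2 were higher. With the block 35 were lower and 3 were higher (20.0% and 23.5% over all genes). The summed level of the stem cell markers was lower in the same libraries, with 4 of 10 called, and its part in this was not tested.

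The m6A site tables held few mitochondrial positions. The authors kept only miCLIP2 reads that mapped to 1 place, so stretches of the mouse chrM copied in the nucleus could hardly yield sites. The longest such stretch spans chrM:6394-9460, and no listed position lies in it. Of the positions given below, however, 5324 lies in a shorter one, chrM:5205-5380, within the part matched by the chromosome 2 copy. Positions 12492 and 13392 lie in the part matched by the chromosome 13 copy (chrM:12446-13400, 95.2% identity), outside the identical stretches. WT mESC had 1 of 25456 sites on chrM, heart RNA had 3 of 46421 sites at 1000 ng, 3 of 8845 at 300 ng, 0 of 1112 at 100 ng and 0 of 248 at 50 ng, and HEK293T cells had 0 of 36556. These made 5 different positions, all on the plus strand and all at an A followed by C. DRACH, the usual context of m6A (D stands for A, G or T, R for A or G, and H for A, C or T), was met at 2 of the 5. The genes on chrM hold 368 such motifs, those in the copied stretches included. The sequences around the positions are given on the plus strand with the listed A in capitals.
chrM:1094: atgaacactctgaActaatcctagccc
chrM:5324: actcagccattttAcctatgttcatta
chrM:12492: actacactcaagtAcaatagtagttgc
chrM:13392: aaaaacatccctaActctcctagactt
chrM:13793: aatcacccccaatActaaaaaacccaa

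Position 1094 is base 1 of mt-Rnr2 as annotated, and it recurred in the tables of WT mESC, heart at 1000 ng and heart at 300 ng. The bases of its DRACH motif before the listed A belong to the end of mt-Tv (chrM:1025-1093). The motif is therefore whole in the precursor but not within mt-Rnr2 as annotated. Its score was 0.839 in mESC, rank 6153 of 25456. In heart at 1000 ng it had 708.396, the highest score of that table, which 61 sites shared, and in heart at 300 ng it had 60.6, rank 308 of 8845. The score of the mESC table does not exceed 1, whereas the scale of the heart scores was not given in the sources used here, so scores are compared within a table only.

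The other 4 positions each appeared in 1 table. Position 5324 (heart at 1000 ng, rank 176) lies 4 bases before the start of mt-Co1 and opposite mt-Ty. Position 13793 (heart at 1000 ng, rank 17013) lies opposite mt-Nd6. Positions 12492 and 13392 (heart at 300 ng, ranks 144 and 4506) lie at bases 751 and 1651 of mt-Nd5, and of these 13392 is in a DRACH context. None of them was listed in both heart tables, and the tables list sites without replicates or coverage, so their recurrence cannot be weighed against depth. Within the nuclear copies described above, 1 site was listed, at chr2:22587461 on the minus strand in heart at 1000 ng (rank 39051).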

How the data were processed

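The authors aligned the 84-base RNA-seq reads to GRCm38.p6 with STAR 2.6.1b, allowing 4% mismatches, and counted reads per gene with HTSeq 0.12.4 on the reverse strand setting; the deposited values are raw counts. The site tables hold a score for each m6A site as the authors deposited it (a prediction score in mESC and HEK293T; the heart scale was not given in the sources used here). Heart inputs follow the study's methods, in ng; the labels of the 3 lower inputs write the unit otherwise.

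Counts were tested with edgeR 4.0.16 (R 4.3.3; filterByExpr, TMM scaling, quasi-likelihood test, Benjamini-Hochberg adjustment, threshold 0.01) on all genes, and DESeq2 1.42.0 was an alternative. Summary lines of the tables did not enter the library sizes: reads in no gene made up 17.6 to 22.6% of a library and reads aligned to several places 13.9 to 15.2%. Self-tests used simulated counts. CPM are scaled by TMM. The SE of a fold change was derived from the test statistic. Shares were compared by exact two-sided permutation tests over 3 against 3 libraries. Where nothing says that libraries came from separate cultures, p-values measure only the spread between these libraries. No pair of replicates was identical within sampling noise.

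Replicate numbers come from the labels. Deviations from the group means correlated at 0.122, 0.464 and 0.303 between same-numbered WT and KO libraries and at -0.342 to 0.110 between the others. The numbers were taken to pair them, though for number 1 the value barely exceeded the highest of the others, and the block was fitted as an alternative.

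Countable windows used the GRCm38.p6 sequence with GENCODE M21 genes (the authors used M23), exact matches on the primary chromosomes, and the default overlap mode of HTSeq, which is assumed. Nuclear copies were found with BLAST 2.17.0 (at least 200 bases and 95% identity).

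Members, gene lists and tests were chosen with earlier results of these data known. All genes with mt- symbols are accounted for. Of the nuclear list, Polrmt, Tfam, Lrpprc and Slirp were named always, with the 3 highest and 3 lowest called fold changes with ranges that do not overlap, and of nuclear pseudogenes the 3 with most reads.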

Additional observations from a re-analysis of the deposited data

How the results depend on the processing

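Of 265 recomputed fold changes of the 18 tested mitochondrial genes, 227 kept their direction and side of the threshold, 21 lost the call, 13 gained it and 4 changed sign. With 1 library left out, the log2 fold change lay between -0.019 and 0.59 for mt-Rnr1 and between -0.0087 and 0.60 for mt-Rnr2 (both lowest without WT replicate 2), and between -0.44 (without KO replicate 2) and 0.46 for mt-Nd4, which was also negative without replicate 2 of both groups (-0.30, an alternative added after seeing the data); the cause was not tested. The number of mitochondrial genes called was 11. With at least 10 reads in every library it was 6 (6 higher, 0 lower). Fewer genes were tested there, and mt-Co1, although tested, was not called. With 1 library left out the number was 7 (without WT replicate 1) to 10. With library size alone as scaling, which moved the median of all genes from -0.02 to 0.08, it was 10 with 0 lower. Shares over all genes are given for the main fit and the block alone, so counts in the other settings have none beside them. The rRNA share difference lay between -1.50 points (without WT replicate 2) and 16.9 points with 1 library left out. The differences of the mitochondrial share of gene counts and of the tRNA and minus strand shares of mitochondrial counts kept their direction in each alternative run.

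The nuclear factors called (19) numbered 29 with the replicate block, 9 (without KO replicate 1) to 23 (without WT replicate 3) with 1 library left out, 10 without WT replicate 1 or KO replicate 3, and 12 without replicate 2 of both groups. The respiratory chain subunits called (19) numbered 10 with library size alone, 38 with the replicate block, 38 at an adjusted p of 0.05, 10 (without KO replicate 1) to 24 with 1 library left out, 11 without KO replicate 2 and 9 without replicate 2 of both groups. Beyond mt-Nd1, mt-Nd2, mt-Nd5 and mt-Te, the block changed no call of a mitochondrial gene, and of the named nuclear genes it changed that of Mettl3 alone. Genes without a countable window numbered 16, and 15 with windows of 75 bases or 17 when 1 mismatch was allowed. Of the 5 chrM sites, 2 lie in DRACH and 1 in RRACH, its narrower form. The tRNA genes have few reads in WT, which limits the precision of their ratios.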
